A study of Mus musculus with 31 samples.

Results

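The striatal response to imipramine (IMN), a tricyclic antidepressant, was described in wild-type (WT) mice by comparing 8 IMN administered with 8 vehicle administered animals across all genes of the deposited table. These 16 mice were chosen by their labels alone, from 31 mice in all. All were labelled female, a label that Y-linked RNA in 1 library went against, and belonged to the C57BL/6NTac-Brd1 line at an age of 8 to 11 weeks, and the WT animals were littermates of mice carrying 1 deleted copy of Brd1 (Brd1+/-), an allele made from a locus with loxP sites and carried by the whole animal. IMN at 10 mg/kg or saline was injected subcutaneously on each of 2 consecutive days. Every mouse, vehicle groups included, was tested after the injections in the tail suspension, open field and forced swim tests, and brains were collected an hour after the swim, so that both groups had met the same stressors. RNA came from frozen punches of the right caudate putamen (CPu), 1 punch per mouse. The 15 Brd1+/- mice (7 vehicle, 8 IMN) entered as a comparison of levels and in a test of the interaction between genotype and treatment.

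IMN blocks the reuptake of serotonin and noradrenaline and also binds muscarinic, histamine and adrenergic receptors. The transporters it blocks are made in brainstem neurons, and their RNA is therefore largely absent from the striatum, where the drug meets axon terminals. The CPu consists mostly of GABAergic projection neurons of the direct pathway, with the dopamine receptor Drd1 and the peptides Tac1 and Pdyn, and of the indirect pathway, with Drd2, Adora2a and Penk. It is covered by cortex, whose excitatory neurons carry Slc17a7, Neurod6 and Tbr1, so that markers of the 2 tissues show what a punch holds.

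The tissue content of the punches differed between the WT groups. The per-mouse mean of log2(TPM + 1) over 12 markers of striatal projection neurons ran from 3.44 to 8.86 in vehicle mice (median 7.62) and from 7.93 to 8.87 in IMN mice (median 8.71), where TPM is an RNA level corrected for gene length and brought to the same total in each mouse. The mean over 10 markers of cortical excitatory neurons ran from 0.84 to 5.50 in vehicle mice (median 5.08) and from 0.82 to 4.49 in IMN mice (median 1.85). The striatal mean was under 8 in 5 vehicle mice and 1 IMN mouse, and the cortical mean was under 3 in 2 vehicle mice (numbers 6 and 8) and 6 IMN mice. In WT vehicle mouse 2 the striatal mean lay below the cortical mean, and the defining striatal markers Drd2 and Adora2a were at 0.75 and 1.02 TPM, against medians of 247.0 and 225.1 TPM in IMN mice. All 12 striatal markers were detected in every WT mouse, and their summed level was 334 to 11340 TPM in vehicle and 5416 to 10120 TPM in IMN mice. The summed level of the 10 cortical markers was 11.96 to 1878 TPM in vehicle and 10.4 to 1066 TPM in IMN mice, with Emx1 and Neurod1 listed at 0 in at least 1 mouse of each group. In the Brd1+/- mice the cortical means ran from 0.97 to 3.33 and the striatal means from 8.46 to 8.85. In bulk tissue, fewer cells of a type and less RNA per cell cannot be told apart.

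**Figure D1:**
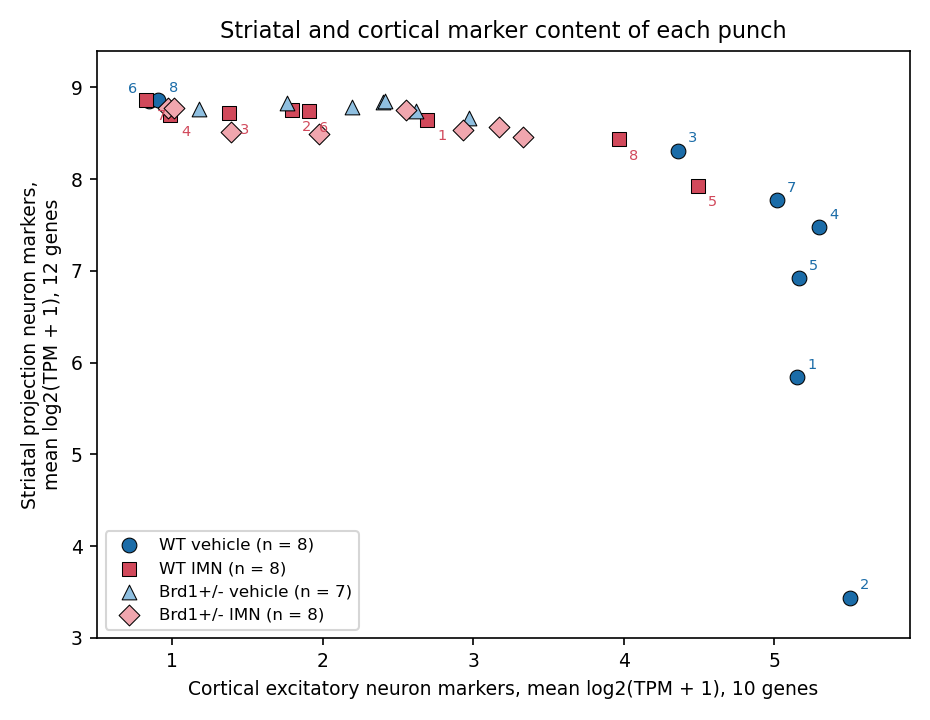
Each point is 1 punch, with the mean log2(TPM + 1) of 10 cortical markers on the horizontal axis and of 12 striatal markers on the vertical axis, and with mouse numbers beside the WT points. WT vehicle mice 1 to 5 and 7 sit at cortical means of 4.36 to 5.50, whereas 6 of the 8 WT IMN mice sit under 3.

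WT vehicle mouse 7 also stood apart in another way. Its library held 26.8 TPM summed over 4 Y-linked genes, whereas the highest of the other 15 WT mice held 0.19 TPM, and the animals are labelled female. It also held Xist, the RNA of the inactive X chromosome, at 79.2 TPM, where the other 15 WT mice ran from 81.4 to 150.5 TPM. Without it, 295 genes were higher and 772 lower at the threshold used below, and the log2 fold changes of Slc35a4 and Arc were -0.75 and -1.04. What part this library or the tissue content of the punches had in the results was not tested beyond the fits given here.

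Across 23579 genes tested with limma on log2(TPM + 1), 1639 genes (6.95%) were nominally significant, a term used here for an unadjusted limma p under 0.01. Of these, 318 (1.35%) were higher and 1321 (5.60%) lower in IMN mice, so that 80.6% of the nominally significant genes were lower. After median-of-ratios scaling between mice, which moves the median change over all genes from -0.08 to 0.00 on the log2 scale, the share of lower genes was 52.1% of 1408. At an FDR of 5% a single gene passed, Slc35a4, whereas 3 genes passed at 10% and 5453 had an unadjusted p under 0.05. The count under 5% moved with single libraries and with the fit, and was 1176 without WT vehicle mouse 6, 2459 without WT vehicle mouse 8, 2291 with all 4 groups in the fit and 4857 with sample quality weights. In the Brd1+/- mice, which the comparison did not use, 68.0% of the 1321 lower genes, 22.0% of the 318 higher genes and 48.0% of all genes tested rose with the cortical marker mean of the mouse. The shares that rose with the striatal marker mean there were 49.7% of the lower genes, 43.1% of the higher genes and 41.3% of all genes tested. With the cortical and striatal means as covariates, 307 genes (1.30%) were nominally significant, 117 (0.496%) higher and 190 (0.806%) lower, and 198 of the 1639 genes (52 higher, 146 lower) passed in both fits with the same sign. In the 8 mice with a cortical mean under 3 (2 vehicle, 6 IMN), 429 of 20569 genes (2.09%) were nominally significant. Of the 56 nominally significant genes named here and fitted in these mice, 54 kept their sign and 15 were nominally significant there. These 8 mice are part of the 16 in which the genes were chosen, so kept signs are no independent check. The share of kept signs over all genes was not counted. Of 57 nominally significant named genes over all 16 mice, 14 were no longer nominally significant when at least 1 of the mice was left out. This held in 12 of the 16 fits for Ddit4, Htr1a and Emx1, in 11 for Gnas, in 10 for Insig1 and Hba-a1, in 9 for Dusp1 and mt-Nd5, in 7 for Fos and Cldn5, in 6 for Cyp51, in 5 for Egfl7 and in 1 each for Bhlhe40 and Pvalb. Median-of-ratios scaling ended nominal significance for 7 of the genes (Tacc2, Nr1d1, Dusp1, Ctsb, Cldn5, Hba-a1 and Hba-a2), and quantile normalization for these and for Plekha6, Bnip3, Gnas, Prkaca, Dnaja1, mt-Nd4l and mt-Nd5.

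**Figure D2:**
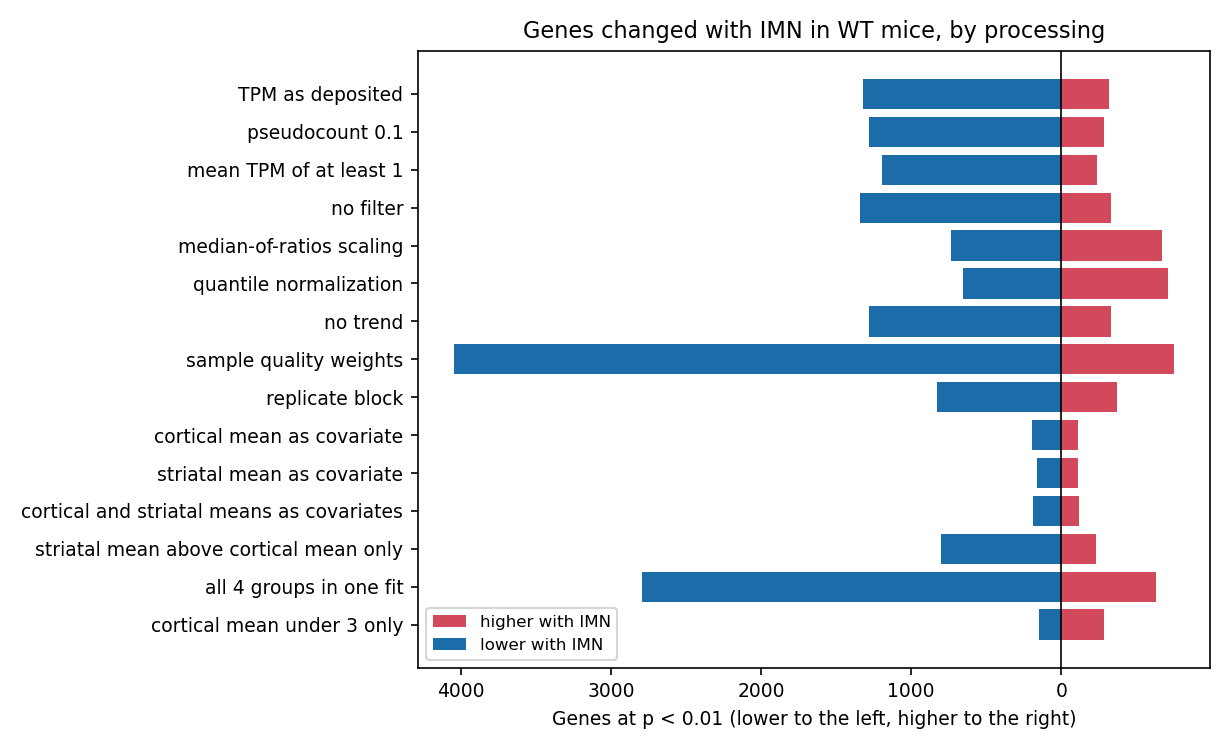
Bars give the number of nominally significant genes that were lower (left) or higher (right) in WT IMN than in WT vehicle mice, by processing. The 1321 lower and 318 higher genes of the TPM as deposited became 190 and 117 with both marker means as covariates, and 147 and 282 among mice with a cortical mean under 3.

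Slc35a4, a member of the nucleotide sugar transporter family of the secretory pathway, was the gene with the smallest p. Its level was 34.5 to 44.0 TPM in vehicle mice (median 36.9) and 20.5 to 25.5 TPM in IMN mice (median 21.1). All 8 IMN mice lay below the lowest vehicle mouse, a separation shared by 27 of all genes tested (0.115%), and 7 of the IMN mice lay within 20.5 to 23.96 TPM. The log2 fold change was -0.75 (SE 0.07, n = 8 and 8, limma, adjusted p = 4.59e-05), with a 95% interval of -0.89 to -0.62. With both marker means as covariates it was -0.68 (adjusted p = 6.01e-04). The gene lies at chr18:36679215-36683861 on the plus strand (GRCm38), and 152 exonic bases at its start are shared with Apbb3 on the other strand. The GENCODE identifier of Apbb3 was not among those of the table, and reads of these 152 bases could not be told apart without strand. In the Brd1+/- mice Slc35a4 ranged over both WT levels, from 19.4 to 36.2 TPM with vehicle and from 18.2 to 37.2 TPM with IMN. The log2 fold change there was -0.13 (SE 0.12), and the interaction was 0.63 on the log2 scale (adjusted p = 0.261), so that a difference between genotypes did not pass the correction. Slc35a4 remained under an FDR of 5% when each of the 16 mice was left out in turn, with adjusted p between 3.68e-05 and 2.70e-04, but not among the 8 mice with a cortical mean under 3 (log2 fold change -0.66, adjusted p = 0.111).

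**Figure D3:**
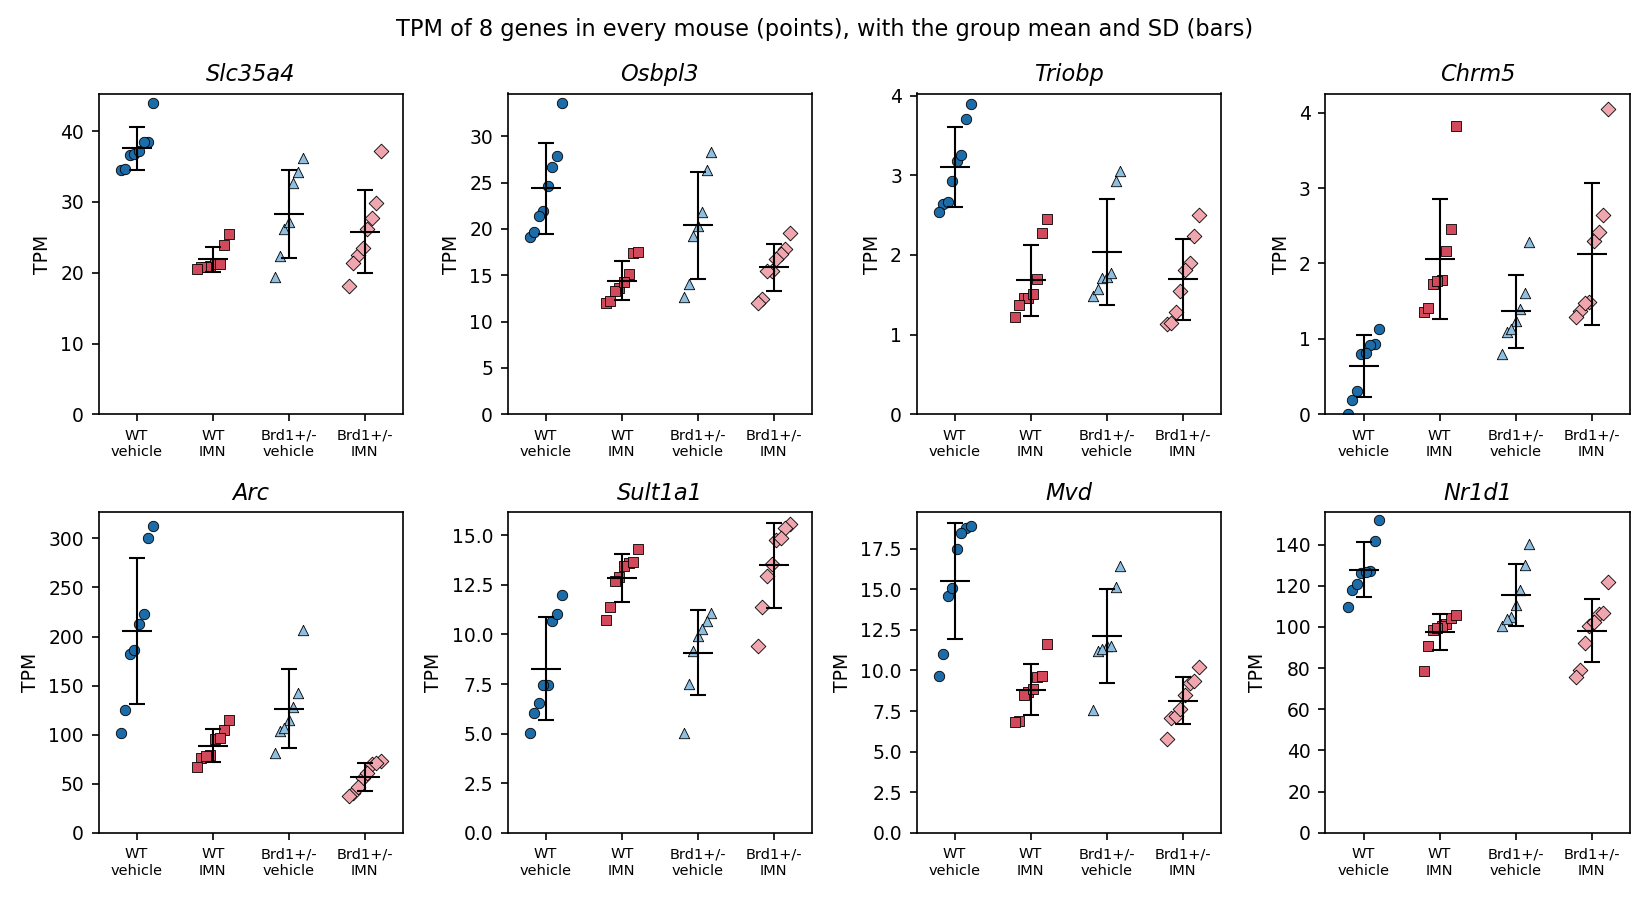
TPM (vertical axes, from 0) of 8 genes in every mouse of the 4 groups, with the group mean and SD. In the WT mice Slc35a4, Osbpl3, Triobp and Nr1d1 were lower and Chrm5 higher in every IMN mouse than in any vehicle mouse, whereas Arc, Sult1a1 and Mvd overlapped between groups.

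Besides Slc35a4, 7 further genes made up the 8 lower protein-coding genes with the smallest p among those with a mean of at least 1 TPM. Osbpl3, an oxysterol-binding protein of membrane contact sites, was at 19.1 to 33.5 TPM in vehicle mice (median 23.3) and at 12 to 17.5 TPM in IMN mice (median 13.9), without overlap. Its log2 fold change was -0.71 (SE 0.12, adjusted p = 0.0977). Triobp, which encodes an actin-bundling protein, fell from 2.54 to 3.89 TPM (median 3.05) to 1.23 to 2.45 TPM (median 1.49), again without overlap, by 0.62 on the log2 scale (SE 0.11, adjusted p = 0.119). Slc39a13, a zinc transporter of the secretory pathway, was at 25.1 to 31.6 TPM with vehicle and at 17.4 to 24.2 TPM with IMN (log2 fold change -0.43, SE 0.08). It shares 215 exonic bases with Psmc3 on the opposite strand, a gene at up to 149.8 TPM, so reads of that stretch could not be told apart without strand. Plekha6, a pleckstrin homology domain protein, was at 59.5 to 70.3 TPM with vehicle and at 47.5 to 58.9 TPM with IMN (log2 fold change -0.33, SE 0.06). Neither of these overlapped between groups, whereas Arpc4, Esrrg and Arc did. Arpc4, a subunit of the actin-nucleating Arp2/3 complex, was at 52.1 to 79.9 TPM with vehicle and at 36.8 to 60.2 TPM with IMN (log2 fold change -0.55, SE 0.09). It shares 283 exonic bases with Ttll3 on the same strand, so its level is uncertain. Esrrg, an orphan nuclear receptor of oxidative metabolism, was at 5.75 to 11.8 TPM with vehicle and at 4.63 to 7.31 TPM with IMN (log2 fold change -0.68, SE 0.13). The remaining lower gene, Arc, is described with the immediate early genes.

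The 8 higher genes chosen by the same rule were led by Chrm5, the muscarinic acetylcholine receptor found on dopamine neurons. Chrm5 was at 0 to 1.13 TPM in vehicle mice (median 0.81, listed at 0 in mouse 2) and at 1.36 to 3.82 TPM in IMN mice (median 1.78). No IMN mouse overlapped the vehicle range, as for 7 of all genes tested (0.0297%), and the log2 fold change was 0.91 (SE 0.17, adjusted p = 0.132). Pde1c, a calcium-dependent phosphodiesterase of cyclic nucleotides, was at 1.12 to 9.10 TPM with vehicle (median 5.66) and at 8.26 to 15.6 TPM with IMN (median 12), with a log2 fold change of 1.08 (SE 0.24). Vehicle mouse 2, the punch poorest in striatal markers, was lowest for Pde1c, and a small overlap remained between the groups. Agtr1a, the type 1 angiotensin II receptor, was at 0.39 to 3.23 TPM with vehicle and at 2.83 to 4.67 TPM with IMN (log2 fold change 0.82, SE 0.19). Arl5c, a small GTPase of the ARF family, was at 0.72 to 3.71 TPM with vehicle and at 3.02 to 6.90 TPM with IMN (log2 fold change 0.94, SE 0.21). Slc25a34, of the mitochondrial carrier family, Tmem91, a transmembrane protein, and Ccdc122, a coiled-coil protein, had log2 fold changes of 0.59, 0.66 and 0.57 with overlapping groups, and Sult1a1 is described below. Tmem91 shares 355 exonic bases with Exosc5 on the opposite strand, a gene at up to 17.0 TPM. In all 16 genes the fit with both marker means kept the sign, and 15 of them were nominally significant there. The exception was Ccdc122 (log2 fold change 0.37, SE 0.13), whose exons also overlap those of Lacc1 on the opposite strand. Within the 8 mice with a cortical mean under 3, which had a part in the choice of these genes, all 16 kept their sign. There 6 were nominally significant (Slc35a4, Osbpl3, Triobp, Arpc4, Pde1c and Tmem91). The log2 fold changes of Agtr1a, Ccdc122, Arl5c and Slc25a34 were 0.26, 0.24, 0.51 and 0.32 there, and those of Esrrg and Plekha6 were -0.30 and -0.20.

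Some of the genes with the smallest p in the fit with both marker means were not among these 16. Mvd, an enzyme of cholesterol synthesis, is described below. Onecut2, a homeobox transcription factor, was at 0.49 to 6.44 TPM with vehicle and at 5.41 to 8.82 TPM with IMN. The log2 fold change was 0.97 (SE 0.26), and 0.34 with the covariates. Tacc2, a centrosomal protein, was at 33.6 to 40.5 TPM with vehicle and at 29.2 to 34.9 TPM with IMN. This was a log2 fold change of -0.24 (SE 0.06), of -0.23 with the covariates and of -0.12, not nominally significant, after median-of-ratios scaling. Wdr83os, which encodes a small membrane protein of the endoplasmic reticulum, was at 54.0 to 64.8 TPM in all 8 IMN mice, and at 20.9 to 29.6 TPM in 5 vehicle mice and 52.7 to 63.2 TPM in the other 3. Its fitted log2 fold change was 0.83 (SE 0.22), and it shares 539 exonic bases with Wdr83 on the opposite strand. Among the mice with a cortical mean under 3, that of Wdr83os was 1.51 and nominally significant. Both vehicle mice there, numbers 6 and 8, were at its low level (21.3 and 20.9 TPM). Those of Onecut2 and Tacc2 were 0.30 and -0.23 there, not nominally significant.

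**Figure D4:**
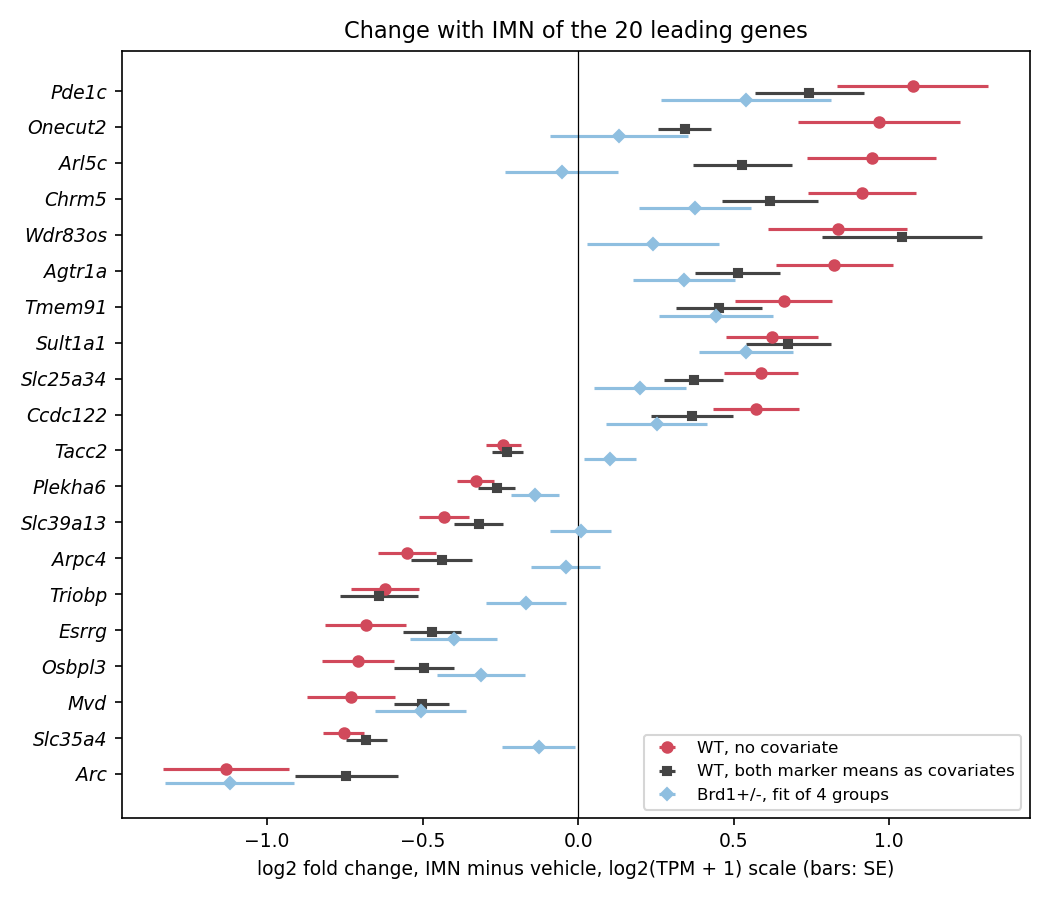
Log2 fold change (IMN minus vehicle, with SE) of the 20 leading genes in WT mice without covariate (circles), in WT mice with both marker means as covariates (squares), and in Brd1+/- mice (diamonds). In the WT mice the sign was kept with the covariates in all 16 genes chosen without them. For Onecut2, Mvd, Tacc2 and Wdr83os a kept sign was a condition of choice. The values with covariates lie closer to 0 in 17 of 20 genes.

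Of the proteins that IMN binds, 15 of 17 listed genes were tested, and 1 was higher and 2 lower at nominal significance (median log2 fold change -0.45, against -0.08 over all genes tested), where 1.35% of all genes tested were higher and 5.60% lower. The counts were 1 higher and 0 lower with both marker means, against 0.496% and 0.806% of all genes, and the median was -0.05. The serotonin and noradrenaline transporters Slc6a4 and Slc6a2 did not pass the filter on low values, with at most 0.11 and 0.03 TPM in any WT mouse, and the dopamine transporter Slc6a3 reached at most 0.19 TPM. Chrm5 was the higher gene. Adra1d, an alpha-1 adrenergic receptor, was at 0.33 to 38.0 TPM with vehicle (median 8.68) and at 0.18 to 2.91 TPM with IMN (median 0.59). Its log2 fold change was -1.92 (SE 0.57, adjusted p = 0.141), and -0.53 with both marker means. Htr1a, the serotonin receptor 1A, was at 0.29 to 6.29 TPM with vehicle and at 0.38 to 2.89 TPM with IMN, with a log2 fold change of -1.15 (SE 0.38) and of -0.31 with both marker means. The groups overlapped for both receptors, and their log2 fold changes turned to 0.02 and 0.10 among the mice with a cortical mean under 3. The striatal muscarinic receptors Chrm1 and Chrm4 had log2 fold changes of -0.12 (SE 0.12) and 0.54 (SE 0.25), neither nominally significant, and the histamine receptor Hrh1 one of -0.72 (SE 0.26, adjusted p = 0.151). Smpd1, the lysosomal acid sphingomyelinase, an enzyme that cationic tricyclics are known to displace, was at 38.0 to 76.7 TPM with vehicle and at 38.6 to 52.2 TPM with IMN (log2 fold change -0.35, SE 0.13, adjusted p = 0.156).

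Immediate early genes, which neurons transcribe within minutes of firing, contained 6 lower and 0 higher genes of 22 tested (median log2 fold change -0.41), where 5.60% of all genes tested were lower. With both marker means 4 of them were lower and 0 higher (median -0.29), against 0.806% and 0.496% of all genes, and after median-of-ratios scaling 5 were lower, as were 3.11% of all genes. Arc, whose protein acts at active synapses, was at 101.2 to 313 TPM in vehicle mice (median 199.5) and at 66.6 to 115 TPM in IMN mice (median 87.1). Only 2 of the 8 IMN mice exceeded the lowest vehicle mouse, number 8, and the IMN mean was 43.2% of the vehicle mean. The log2 fold change was -1.13 (SE 0.20, adjusted p = 0.119), and -0.75 (SE 0.17) with both marker means. Vehicle mice 6 and 8, the punches poor in cortical markers, held the 2 lowest vehicle values of Arc, 125.6 and 101.2 TPM, and among the mice with a cortical mean under 3 the log2 fold change was -0.41 and not nominally significant. Arc also differed in the Brd1+/- mice, at 81.0 to 206 TPM with vehicle and 37.3 to 73.4 TPM with IMN, where the cortical marker means ran from 0.97 to 3.33. There the log2 fold change was -1.12 (SE 0.21, limma fit of 4 groups, adjusted p = 0.0485), and the interaction had an adjusted p of 0.990.

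Ier2 and Ier5, nuclear proteins of the early growth response, were at 2.79 to 19.1 and 22.6 to 68.2 TPM with vehicle, and at 1.70 to 3.92 and 17.6 to 38.5 TPM with IMN. Their log2 fold changes were -1.26 (SE 0.29) and -0.94 (SE 0.22). Nptx2, a secreted pentraxin that gathers AMPA receptors, fell by 0.79 on the log2 scale (SE 0.19), Fos, the AP-1 transcription factor, by 1.31 (SE 0.41) and Dusp1, a phosphatase of MAP kinases, by 0.54 (SE 0.18). The groups overlapped in each of these 5 genes. In the fit with both marker means the log2 fold changes of Ier2, Ier5 and Nptx2 were -0.60, -0.47 and -0.43, and those of Fos and Dusp1 were -0.54 and -0.26 and not nominally significant. In the mice with a cortical mean under 3 none of the 6 genes was nominally significant, with -0.44 for Ier2, -0.37 for Ier5, -0.30 for Nptx2, -0.04 for Fos and -0.11 for Dusp1. Egr1 and Npas4, activity-dependent transcription factors, had log2 fold changes of -0.42 (SE 0.16) and -0.48 (SE 0.21) that were not nominally significant, and Junb one of -0.14 (SE 0.15). The promoter of Dusp1 is shown because it was 1 of 2 among 17 listed immediate early genes with a RefSeq promoter (GRCm38.p6) that held the cAMP response element TGACGTCA, a letter string found on either strand in 1.79% of 32851 promoters of 300 bases. The sequence at chr17:26508423-26508722, minus strand, has this element at position -143 and the E-box CACGTG at position -126 from the start in capitals.
Dusp1: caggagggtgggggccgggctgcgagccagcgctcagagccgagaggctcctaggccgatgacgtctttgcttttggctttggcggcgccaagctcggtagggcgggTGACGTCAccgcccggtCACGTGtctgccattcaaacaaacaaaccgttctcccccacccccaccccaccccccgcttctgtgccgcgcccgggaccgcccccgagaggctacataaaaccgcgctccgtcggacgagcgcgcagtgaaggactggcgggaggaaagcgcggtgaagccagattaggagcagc

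Clock genes, which keep daily time through a feedback loop of transcription, contained 2 higher and 2 lower genes of 15 tested (median log2 fold change 0.09), where 1.35% of all genes tested were higher and 5.60% lower. Adding both marker means left 0 higher and 1 lower (median -0.04), against 0.496% and 0.806% of all genes, and median-of-ratios scaling gave 3 higher and 1 lower, against 2.86% and 3.11%. Nr1d1, the repressor REV-ERB alpha, was at 109.8 to 152 TPM in vehicle mice (median 126) and at 78.8 to 106 TPM in IMN mice (median 100), without overlap. Its log2 fold change was -0.39 (SE 0.08, adjusted p = 0.132), -0.35 with both marker means and -0.24 (SE 0.09) in the Brd1+/- mice. After median-of-ratios scaling it was -0.26 and not nominally significant, and in the mice with a cortical mean under 3 it was -0.30 and nominally significant. Nr1d1 shares 263 exonic bases with Thra on the opposite strand, a gene at up to 633 TPM, so reads of that stretch could not be told apart without strand. Cry1, a repressor of the loop, was at 8.24 to 14.96 TPM with vehicle and at 14.1 to 21.8 TPM with IMN (log2 fold change 0.53, SE 0.13). Npas2, a partner of the activator BMAL1, was at 30.4 to 54.4 TPM with vehicle and at 48.8 to 67.2 TPM with IMN (log2 fold change 0.47, SE 0.12). Both overlapped between the groups, and neither was nominally significant with both marker means (0.35, SE 0.13, and 0.27, SE 0.10) or in the mice with a cortical mean under 3 (0.32 and 0.28). Bhlhe40, a repressor that is also induced by activity, was at 21.5 to 156 TPM with vehicle and at 21.3 to 35.6 TPM with IMN (log2 fold change -0.96, SE 0.29, with -0.26 with both marker means and -0.07 in the mice with a cortical mean under 3). The core activators Arntl and Clock had log2 fold changes of 0.09 (SE 0.13) and 0.01 (SE 0.15). Promoters of Cry1, the higher of these genes by log2 fold change, and of Nr1d1, the lower gene without overlap, are shown side by side, with the E-box CACGTG, the element bound by the activators, in capitals. It was found in 4 of 13 listed clock genes with a RefSeq promoter, and in 7.15% of all 32851, reading either strand. In Cry1 (chr10:85185005-85185304, minus strand) it stands at position -60, and in Nr1d1 (chr11:98775328-98775627, minus strand) these letters are not in the window.
Cry1: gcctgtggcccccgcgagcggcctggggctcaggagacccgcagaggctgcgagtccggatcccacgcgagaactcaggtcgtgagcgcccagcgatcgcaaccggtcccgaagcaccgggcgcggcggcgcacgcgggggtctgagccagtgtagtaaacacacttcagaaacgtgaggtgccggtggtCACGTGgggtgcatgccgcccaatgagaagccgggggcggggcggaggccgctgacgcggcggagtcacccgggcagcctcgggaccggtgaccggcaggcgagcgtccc
Nr1d1: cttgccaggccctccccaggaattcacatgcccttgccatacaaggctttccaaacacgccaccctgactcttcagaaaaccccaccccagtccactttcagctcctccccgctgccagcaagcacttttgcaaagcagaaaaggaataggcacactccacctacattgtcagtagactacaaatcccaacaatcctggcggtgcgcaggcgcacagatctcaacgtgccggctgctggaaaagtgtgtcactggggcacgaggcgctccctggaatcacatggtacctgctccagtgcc

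Genes that respond to glucocorticoids, the adrenal stress hormones, contained 3 higher and 0 lower genes of 23 tested (median log2 fold change 0.10), where 1.35% of all genes tested were higher and 5.60% lower. The fit with both marker means gave 3 higher and 0 lower (median 0.22), against 0.496% and 0.806% of all genes, and median-of-ratios scaling gave 4 and 0, against 2.86% and 3.11%. Sult1a1, a sulphotransferase of phenols and catecholamines, was at 5.01 to 12 TPM with vehicle (median 7.45) and at 10.8 to 14.3 TPM with IMN (median 13.2). Of the 8 IMN mice, 6 lay above the highest vehicle mouse, and the log2 fold change was 0.62 (SE 0.15, adjusted p = 0.141), or 0.68 with both marker means and 0.44, not nominally significant, in the mice with a cortical mean under 3. It shares 61 exonic bases with Sgf29 on the opposite strand, a gene at up to 37.1 TPM. Angptl4, an inhibitor of lipoprotein lipase, was at 0.62 to 2.34 TPM with vehicle and at 1.58 to 2.74 TPM with IMN (log2 fold change 0.52, SE 0.13, and 0.49 with both marker means). Ddit4, an inhibitor of the mTORC1 kinase, was at 16.9 to 43.6 TPM with vehicle (median 21.1) and at 29.5 to 38.0 TPM with IMN (median 31.8). Its log2 fold change was 0.48 (SE 0.16), or 0.53 with both marker means, and a single vehicle mouse exceeded the IMN range. With 1 mouse left out it ran from 0.42 to 0.60, short of nominal significance in 12 of 16 fits. Among the mice with a cortical mean under 3, the log2 fold changes of Angptl4 and Ddit4 were 0.54 and 0.59, both nominally significant. In the Brd1+/- mice the log2 fold changes of the 3 genes were 0.54 (SE 0.15), 0.77 (SE 0.18) and 0.87 (SE 0.16). A pair of standard reporters of the receptor were not nominally significant in WT mice, Fkbp5 with a log2 fold change of 0.32 (SE 0.12) and Sgk1 with 0.40 (SE 0.25). Of the FOXO and insulin responsive genes, 1 of 14 was lower and 0 were higher (median 0.06), a share near the 5.60% of all genes that were lower. After median-of-ratios scaling 2 were higher and 1 lower (median 0.18), against 2.86% and 3.11% of all genes. The lower one was Bnip3, a mitochondrial receptor of autophagy, with a log2 fold change of -0.31 (SE 0.09). It was not nominally significant with both marker means (-0.15) or in the mice with a cortical mean under 3 (-0.12).

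All 20 genes of cholesterol synthesis and its control had log2 fold changes below 0 (median -0.50, against -0.08 over all genes tested). Of them 5 were nominally significant, where 5.60% of all genes tested were lower. After median-of-ratios scaling 5 were lower (median -0.38), against 3.11% of all genes. Mvd, which makes isopentenyl diphosphate, was at 9.67 to 18.9 TPM in vehicle mice (median 16.3) and at 6.85 to 11.6 TPM in IMN mice (median 8.77). Of the 8 IMN mice, 7 lay below the lowest vehicle mouse, and the log2 fold change was -0.73 (SE 0.14, adjusted p = 0.132), or -0.50 (SE 0.09) with both marker means. In the Brd1+/- mice it was -0.51 (SE 0.15). Mvk, an earlier kinase of the same pathway, Cyp51, an enzyme of a later step, and Insig1, a sterol sensor, had log2 fold changes of -0.51 (SE 0.14), -0.54 (SE 0.17) and -0.58 (SE 0.19), with overlapping groups, and Cyp51 shares 166 exonic bases with Akap9 on the opposite strand. With both marker means the median of the list was -0.17, and Mvd was the 1 member that was nominally significant, where 0.806% of all genes were lower. Among the mice with a cortical mean under 3, the log2 fold changes of Mvd, Mvk, Insig1 and Cyp51 were -0.31, -0.27, -0.05 and -0.07, none of them nominally significant.

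Heat shock genes, the chaperones of protein folding, contained 4 lower and 0 higher genes of 15 tested (median log2 fold change -0.22, against -0.08 over all genes tested), where 5.60% of all genes tested were lower. All 15 values were below 0, and the median was -0.10 after median-of-ratios scaling and -0.13 with both marker means. With that scaling 4 were lower, against 3.11% of all genes. Hspa1a and Hspa1b, the inducible HSP70 pair, were at 1.31 to 7.52 and 1.14 to 7.25 TPM with vehicle, and at 0.86 to 2.77 and 0.83 to 3.02 TPM with IMN. Their log2 fold changes were -0.82 (SE 0.22) and -0.88 (SE 0.24), and because the 2 genes are near-identical their reads could be split between them. The cochaperones Dnajb1 and Dnaja1 had log2 fold changes of -0.47 (SE 0.13) and -0.35 (SE 0.10), and Dnaja1 shares 608 exonic bases with Smu1 on the opposite strand. None of the 4 was nominally significant in the mice with a cortical mean under 3 (-0.26, -0.34, -0.15 and -0.28), and with both marker means 0 of the 15 were. Of 20 lysosomal genes, 2 were lower and 0 higher (median -0.20), not far from the 5.60% of all genes. After median-of-ratios scaling 1 was lower and 1 higher (median -0.08), against 3.11% and 2.86% of all genes. The 2 lower genes without scaling were Atp6v0d1, a subunit of the proton pump, and Ctsb, a cathepsin, with log2 fold changes of -0.40 (SE 0.11) and -0.33 (SE 0.10). Neither passed with both marker means or in the mice with a cortical mean under 3 (-0.15 and -0.17), and Ctsb shares 774 exonic bases with Fdft1 on the opposite strand.

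Genes of cAMP and CREB signalling, the cascade downstream of dopamine receptors, contained 0 higher and 3 lower genes of 21 tested (median log2 fold change 0.34), where 1.35% of all genes tested were higher and 5.60% lower. After median-of-ratios scaling 2 were higher and 3 lower (median 0.47), against 2.86% and 3.11% of all genes. Gnas, the stimulatory G protein subunit, was at 254 to 869 TPM with vehicle and at 165 to 578 TPM with IMN (log2 fold change -0.94, SE 0.31). Prkaca, the catalytic subunit of protein kinase A, and Crem, a CREB family factor, had log2 fold changes of -0.36 (SE 0.10) and -0.66 (SE 0.20). None of the 3 was nominally significant with both marker means (-0.39, -0.13 and -0.45) or in the mice with a cortical mean under 3 (-0.30, -0.08 and -0.53). Adcy5 and Gng7, which striatal projection neurons express strongly, had values of 1.20 (SE 0.49) and 1.37 (SE 0.53) and of 0.02 and 0.07 with both marker means, where the median of the list was -0.06. The 13 protein-coding genes of the mitochondrial genome all had log2 fold changes above 0 (median 0.28), and 2 were nominally significant, where 1.35% of all genes tested were higher. The median was 0.09 with both marker means, and 1 gene was nominally significant there, where 0.496% of all genes were higher. Without covariates the 2 genes were mt-Nd4l and mt-Nd5, subunits of complex I, with log2 fold changes of 0.55 (SE 0.15) and 0.44 (SE 0.14). Both share exonic bases with a neighbouring mitochondrial gene. Their values were 0.35 and 0.41, nominally significant, in the mice with a cortical mean under 3. After quantile normalization they were 0.23 and 0.05, not nominally significant.

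**Figure D5:**
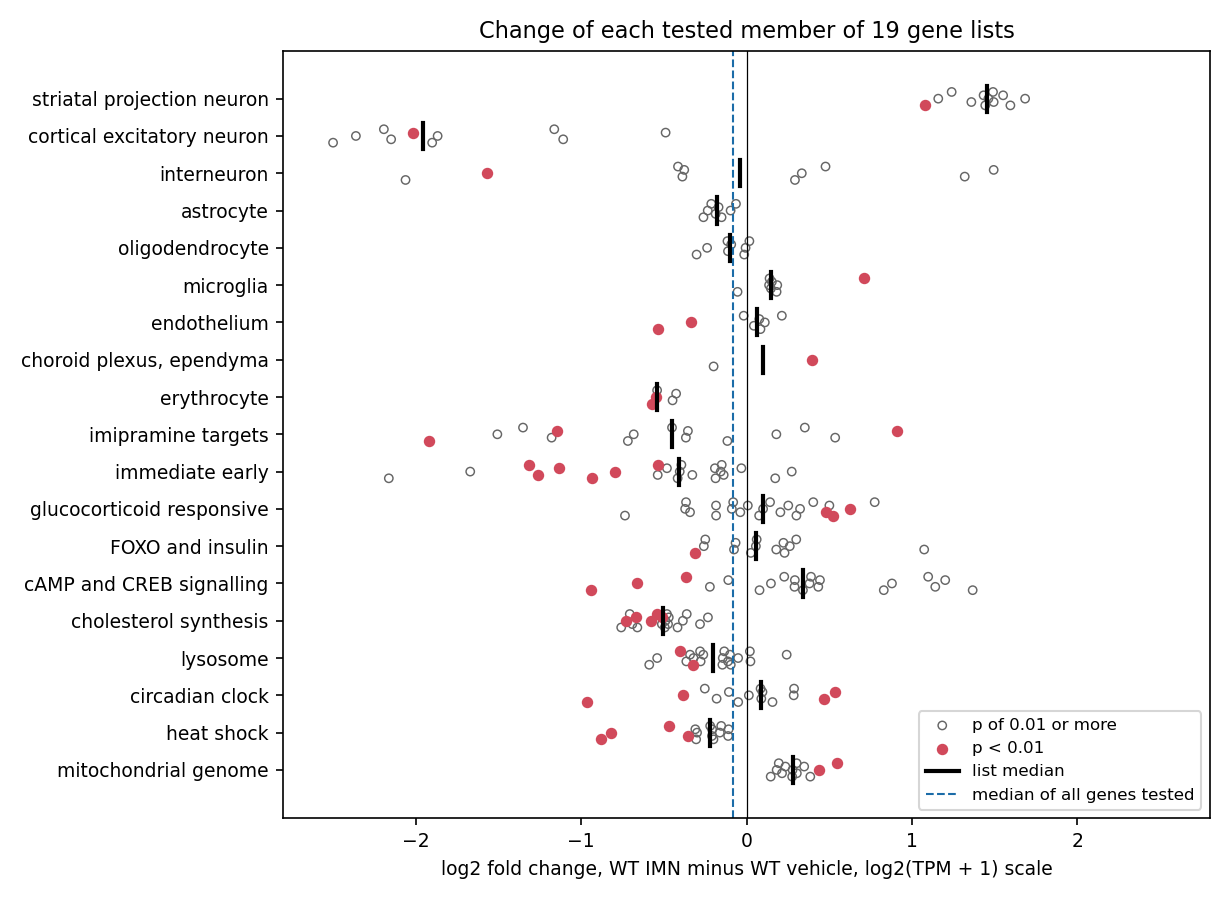
Log2 fold change (WT IMN minus WT vehicle) of each tested member of 19 gene lists, with filled points for nominally significant genes, black bars at list medians and a dashed line at the median of all genes tested (-0.08). All striatal markers lie right of 0 and all cortical markers left of 0, with medians of 1.45 and -1.96, and all cholesterol and heat shock genes lie left of 0.

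The cell type markers were counted in the same fit, where 1.35% of all genes tested were higher and 5.60% lower. All 12 striatal markers had log2 fold changes above 0 (median 1.45), and 1 was nominally significant: Pdyn, the dynorphin precursor, at 9.48 to 61.8 TPM with vehicle and at 34.5 to 85.3 TPM with IMN (log2 fold change 1.08, SE 0.32, and 0.54, not nominally significant, with both marker means). The log2 fold change of Pdyn was 0.67 and nominally significant in the mice with a cortical mean under 3. All 10 cortical markers had values below 0 (median -1.96), and 1 was lower: Emx1, a cortical homeobox gene, at 0 to 23.2 TPM with vehicle and 0 to 4.84 TPM with IMN (log2 fold change -2.02, SE 0.66). Of 10 interneuron markers, 5 had log2 fold changes above 0 and 5 below (median -0.04, range -2.06 to 1.49), from Vip, a peptide of cortical interneurons, to Chat, the acetylcholine-synthesizing enzyme, neither of them nominally significant. Pvalb, the parvalbumin of fast-spiking cells, was lower, at 11.8 to 284 TPM with vehicle and at 7.75 to 30.2 TPM with IMN (log2 fold change -1.57, SE 0.48), and 0 of 10 were higher. Its log2 fold change was -0.38 with both marker means and -0.25 in the mice with a cortical mean under 3, neither nominally significant. Of 8 microglial markers 1 was higher and 0 lower (median 0.15, and 4 higher after median-of-ratios scaling, which made 2.86% of all genes higher): Trem2, a phagocytic receptor, at 2.99 to 11.5 TPM with vehicle and at 8.23 to 13.2 TPM with IMN (log2 fold change 0.71, SE 0.21). Of 8 endothelial markers 5 had log2 fold changes above 0 (median 0.06), and 2 were lower and 0 higher at nominal significance, Cldn5 of the tight junction with a log2 fold change of -0.33 (SE 0.11) and Egfl7, a secreted vascular protein, with -0.53 (SE 0.16). After median-of-ratios scaling, which made 3.11% of all genes lower, Egfl7 alone was lower. Of 5 red blood cell genes 2 were lower, the alpha globins Hba-a1 and Hba-a2 with log2 fold changes of -0.55 (SE 0.17) and -0.57 (SE 0.17), and these near-identical copies could share reads. Neither was nominally significant after median-of-ratios scaling (-0.42 and -0.45). No microglial, endothelial or red blood cell gene was nominally significant with both marker means (0 of 8, 0 of 8 and 0 of 5), with 0.62 for Trem2, -0.20 for Cldn5, -0.19 for Egfl7, and -0.49 and -0.52 for the globins. In the mice with a cortical mean under 3 the values of Trem2, Cldn5 and Egfl7 were 0.48, -0.28 and -0.18, not nominally significant, and those of the globins were -0.83 and -0.86 and nominally significant. The summed level of the 5 red blood cell genes was 211 to 403 TPM with vehicle and 163 to 323 TPM with IMN. No astrocyte or oligodendrocyte marker passed in either direction (0 of 8 each, medians -0.18 and -0.10). Of 8 choroid plexus and ependymal genes 2 passed the filter on low values, and 1 was higher, Kl, the Klotho gene, at 0.24 to 0.77 TPM with vehicle and at 0.72 to 1.36 TPM with IMN (log2 fold change 0.40, SE 0.09, and 0.24, not nominally significant, in the mice with a cortical mean under 3). Of the list, 6 genes, Ttr and Otx2 included, were listed at 0 in at least 1 mouse of each WT group. Brd1 itself did not differ between the WT groups beyond their spread, at 18.3 to 26.9 TPM with vehicle and at 14.6 to 22.5 TPM with IMN (log2 fold change -0.17, SE 0.10, adjusted p = 0.298).

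Whether the change with IMN in WT mice differed from that in Brd1+/- mice was tested as an interaction in 1 limma fit of all 31 mice. Of 25394 genes, 951 (3.74%) had a nominally significant interaction and 4119 an unadjusted p under 0.05, whereas 0 passed an FDR of 5%. The interaction was positive (Brd1+/- minus WT) in 753 and negative in 198 of the 951 genes. With both marker means as covariates 144 genes were nominally significant. In the same fit, 296 genes (1.17%) were nominally significant for IMN against vehicle in the Brd1+/- mice, and 3424 in the WT mice. Of the 20 leading genes of the WT comparison, 17 had the same sign in the Brd1+/- mice, a share that was not counted over all genes. Of these, 4 (Arc, Sult1a1, Mvd and Esrrg) were also nominally significant there. The 3 with the opposite sign were Arl5c, Slc39a13 and Tacc2, with log2 fold changes of -0.05, 0.01 and 0.10 in the Brd1+/- mice.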

How the data were processed

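CPu punches of 31 mice labelled female gave 1 RNA library each, read in single-end mode on a BGISEQ-500, and the sample titles gave genotype, treatment and mouse. According to the submitters' processing notes the reads were checked with FastQC, trimmed with Trimmomatic, aligned to GRCm38 with HISAT2 2.1.0 and assigned with StringTie 1.3.4. The authors deposited TPM for 52636 Ensembl genes, with sums of 999787 to 999918 per mouse and 0 columns left unused here. TPM keeps no read counts, so the depth of each library is unknown here and errors stand for differences between mice. The study's methods give only a minimum number of reads for its samples. Whether assignment used strand is not given in the sources used here. GENCODE M21 (GRCm38) gave symbols and positions for 52489 identifiers and held no entry for 147.

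Genes over 0.1 TPM in 7 or more of the fitted mice were tested on log2(TPM + 1) with limma 3.58.1 in R 4.3.3 (empirical Bayes with a variance trend, two-sided, Benjamini-Hochberg adjustment over all genes tested). Nominal significance was an unadjusted p under 0.01, and the FDR was 5%. A pseudocount of 1 TPM understates the change of low genes. The study's methods name a count test, which TPM does not allow, and limma took its place. The fit was tested on simulated data. Marker means are per-mouse means of log2(TPM + 1) over a list. Named were genes under the FDR of 5%, the 8 protein-coding genes per direction with the lowest p at a mean of 1 TPM or more, up to 6 per direction with the lowest p with both marker means as covariates if nominally significant with the same sign without them, nominally significant list members (up to 4 per list, and all 6 immediate early genes), Brd1 and the monoamine transporters. Values of some list members are not reported here. Members and gene lists were chosen with earlier results of these data known. Alternatives covered the pseudocount, the low-value filter, scaling, the variance trend, sample weights, a replicate block, marker covariates, subsets of mice, all 4 groups in 1 fit and leaving out each mouse. The subset of mice with a cortical mean under 3 was chosen after seeing the data.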

Additional observations from a re-analysis of the deposited data

Results flagged for a closer look

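Single mice stood apart from their group in 6 of 134 gene or marker groups examined, where chance alone gives about 1 in 20. On the log2(TPM + 1) scale WT vehicle mouse 1 was highest for Slc35a4 (5.49), and WT vehicle mouse 2, the punch with the lowest striatal marker mean, was lowest for Pde1c (1.08) and Tmem91 (4.42). Crem was lowest in WT vehicle mouse 8 (3.45) and in WT IMN mouse 4 (2.38). The striatal marker mean was lowest in WT IMN mouse 5 (7.93), the IMN punch with the highest cortical mean.

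For 13 of 58 named genes (22.4%) the change with IMN differed between genotypes at nominal significance in the interaction test, none of them under an FDR of 5% (adjusted p = 0.261 each). The share was 3.74% of all genes and 28.5% of the 1639 genes nominally significant in the WT mice, whose comparison is part of the interaction. The interaction (Brd1+/- minus WT, log2 scale) was positive for Slc35a4 (0.63), Arpc4 (0.51), Slc39a13 (0.44), Tacc2 (0.34), Adra1d (1.73), Htr1a (1.23), Ier2 (1.16), Gnas (1.42), Insig1 (0.74), Hspa1a (0.79) and Dnaja1 (0.42), and negative for Arl5c (-0.996) and Cry1 (-0.50). The WT vehicle punches, which enter each of these contrasts, were those with the widest range of cortical markers, and the part of tissue content in them was not tested gene by gene.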

How the results depend on the processing

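The deposited values hold no read counts, so the depth of each library cannot be given. The number of nominally significant higher genes was 674 after median-of-ratios scaling, 712 after quantile normalization, 750 with sample quality weights, 633 with all 4 groups in 1 fit, and 115, 115 and 117 with the cortical mean, the striatal mean or both as covariates. The number of lower genes in the same order was 734, 655, 4048, 2791, 195, 163 and 190, and it was 801 among mice with a striatal mean above the cortical mean and 147 among those with a cortical mean under 3. Genes under an FDR of 5% numbered 4857 with sample weights, 2291 with all 4 groups and 11 with a cortical mean under 3. Nominally significant interaction genes numbered 3458 with weights, 226, 126 and 144 with the covariates in the order above, 605 with a striatal mean above the cortical mean and 155 with a cortical mean under 3. Why weights and a shared spread raise these counts was not tested. Leaving out 1 mouse gave 210 to 604 higher, 695 to 3022 lower, 1 to 2459 genes under the FDR and 546 to 2571 interaction genes. The high ends came without WT vehicle mouse 6 (604, 2574 and 1176, interaction 2349) or mouse 8 (554, 3022 and 2459, interaction 2571), and without WT IMN mouse 5 there were 1969 lower genes. Mouse numbers did not pair the samples (r of -0.413 to 0.433 over 8 pairs, 2 above 0.1, with 1 vehicle mouse correlating best with its own number), and a replicate block gave 372 higher and 825 lower genes, with Slc35a4 at -0.75. The log2 fold changes of Adra1d (0.0156) and Htr1a (0.105) were above 0 with a cortical mean under 3, and the other 56 of 58 named genes kept their sign in every alternative they entered. Emx1 and Kl each lacked 1 of the 14 alternatives, since they did not pass the filter there. Nominal significance was kept in all alternatives and with each mouse left out in 8 of the 57 genes that had it. Under the 2 scalings, in the order above, marker mean differences changed sign for endothelium (-0.04 to 0.0730 and 0.0894), interneurons (-0.09 to 0.02 and 0.04, and to 0.01 with a pseudocount of 0.1 TPM) and oligodendrocytes (-0.11 to 0.02 and 0.01). Leaving out 1 mouse, marker mean differences (IMN minus vehicle) ran from 0.88 to 1.66 (striatal), -2.23 to -1.56 (cortical), -0.13 to -0.03 (interneuron), -0.24 to -0.08 (astrocyte), -0.24 to 0.12 (oligodendrocyte), 0.15 to 0.24 (microglia), -0.07 to -0.02 (endothelium), -0.16 to -0.06 (choroid plexus) and -0.58 to -0.45 (red blood cells).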

Other observations

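A pair of overlapping genes, chosen after their values were seen, took 2 separate levels in the WT mice. Gm45140 was at 9.05 to 10.9 TPM in 5 vehicle mice, at 0.19 to 0.32 TPM in the other 3 and at 0.07 to 0.23 TPM in all 8 IMN mice. Rab43, a small GTPase of the Golgi that shares 4164 exonic bases with it on the same strand, was at 0.93 to 2.12 TPM in 5 vehicle mice, at 10.9 to 11.8 TPM in the other 3 and at 10.3 to 13.9 TPM in all IMN mice. Log2 fold changes were -2.05 (SE 0.53) for Gm45140 and 1.63 (SE 0.42) for Rab43, and how reads were shared between the 2 gene models was not tested.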
